A study of Mus musculus with 6 samples.

Results

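Histone lysine methyltransferases ("writers") and demethylases ("erasers") were followed in LT-HSCs, the long-term blood-forming stem cells of the mouse bone marrow. The genes were all protein-coding rows of the deposited expression table whose symbol begins with Kdm, Kmt or Setd and a digit, other than Kdm3a. This gave 33 of 55487 genes, 16 writers (Kmt and Setd genes) and 17 erasers (Kdm genes). The study compared 3 libraries from carnosine-treated mice (carnosine is the dipeptide beta-alanyl-histidine) with 3 from saline-treated mice. All mice were wild type and were not irradiated, and the cells were sorted as lineage-negative, Sca-1-positive, c-Kit-positive cells without Flk2 and CD34 on the surface. No source used here gives the dose, the duration, or the age of the animals. Whether each library stands for a separate mouse is not stated either, so p-values measure the spread between these libraries, which may be technical.

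Writers move methyl groups from S-adenosylmethionine to lysines of the histone tails, mostly through a SET domain, and erasers take them off, either by an amine oxidase (KDM1A and KDM1B) or by a Jumonji domain that uses iron, oxygen and 2-oxoglutarate. Methylation of H3K4, a lysine of the histone H3 tail, marks active promoters and enhancers, and that of H3K36 marks transcribed gene bodies. H3K9 and H3K27 methylation go with silent chromatin, and H4K20 methylation with chromatin compaction and replication control. In blood stem cells KMT2A is known for keeping HOX genes on, KMT2D and KDM6A as tumour suppressors, and KDM1A for silencing with GFI1 and GFI1B.

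In carnosine libraries 9 of the 32 genes tested were lower and 1 was higher (edgeR quasi-likelihood test, Benjamini-Hochberg adjustment over 15298 genes, threshold 0.05). The background was 8.39% of all genes called lower and 9.51% called higher. The lower genes were 5 writers (Kmt2c, Kmt2d, Kmt2e, Kmt5b and Setd1b) and 4 erasers (Kdm3b, Kdm5b, Kdm6b and Kdm7a), and the higher gene was the writer Kmt5a. Changes were small. Log2 fold changes (carnosine over saline, on counts) ran from -0.48 to 0.19 with a median of -0.17, and 29 of 32 were below 0, against 49.8% of all genes. In 16 of the 32 every carnosine library lay below every saline library in FPKM, against 19.6% of all genes, and in 2, Kmt5a and Kdm1a, every one lay above, against 19.0%. The medians of writers and erasers were -0.16 and -0.18. In bulk RNA, fewer cells of a type and less RNA per cell cannot be told apart.

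Promoter sequences of 6 of the 10 called genes were held in the RefSeq table used (build GRCm38.p6), and 4 are shown: those of the enhancer writers Kmt2c and Kmt2d and the eraser Kdm5b, all lower in carnosine, and a window of Kmt5a, the higher gene. Kmt5a has 3 windows in the table, for different start sites, and the most upstream is shown. Each window runs 5′ to 3′ on the gene's strand from 250 bases before to 50 after the start site. Capitals mark every match, on either strand, to the GC box GGGCGG or the CCAAT box CCAAT.
Kmt2c, chr5:25498734-25499033, minus strand: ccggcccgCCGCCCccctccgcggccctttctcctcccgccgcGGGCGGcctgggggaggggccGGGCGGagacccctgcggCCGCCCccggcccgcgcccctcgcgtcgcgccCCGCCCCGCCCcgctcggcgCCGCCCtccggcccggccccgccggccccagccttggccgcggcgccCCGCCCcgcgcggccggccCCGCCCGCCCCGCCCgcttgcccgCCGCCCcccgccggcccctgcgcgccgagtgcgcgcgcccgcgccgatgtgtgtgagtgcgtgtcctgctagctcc
Kmt2d, chr15:98871156-98871455, minus strand: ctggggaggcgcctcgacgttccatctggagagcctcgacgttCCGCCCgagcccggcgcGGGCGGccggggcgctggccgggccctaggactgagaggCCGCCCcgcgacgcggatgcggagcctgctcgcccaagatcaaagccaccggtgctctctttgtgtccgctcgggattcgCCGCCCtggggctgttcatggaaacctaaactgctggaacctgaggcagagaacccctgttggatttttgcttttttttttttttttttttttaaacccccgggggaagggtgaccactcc
Kdm5b, chr1:134559928-134560227, plus strand: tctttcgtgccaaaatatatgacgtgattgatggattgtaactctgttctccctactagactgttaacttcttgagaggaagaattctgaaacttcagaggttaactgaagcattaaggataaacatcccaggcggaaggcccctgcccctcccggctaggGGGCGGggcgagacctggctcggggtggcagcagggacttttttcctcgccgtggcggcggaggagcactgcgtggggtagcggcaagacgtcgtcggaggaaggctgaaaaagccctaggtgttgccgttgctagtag
Kmt5a, chr5:124439680-124439979, plus strand: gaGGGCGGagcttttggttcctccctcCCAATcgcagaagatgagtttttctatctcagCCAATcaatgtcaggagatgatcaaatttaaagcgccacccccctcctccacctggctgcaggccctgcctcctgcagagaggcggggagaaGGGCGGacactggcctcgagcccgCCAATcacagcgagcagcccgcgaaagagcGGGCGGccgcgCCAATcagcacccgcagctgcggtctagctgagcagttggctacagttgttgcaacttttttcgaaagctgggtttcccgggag
The Kmt2c window held 12 GC boxes and was 88.0% G or C, the Kmt2d window 4 GC boxes, the Kdm5b window 1, and the Kmt5a window 3 GC boxes and 4 CCAAT boxes. The Kmt5a windows not shown held 3 GC boxes with 1 CCAAT box, and 1 GC box with 2 CCAAT boxes. Overlapping matches are counted each. The table held 33 windows that were counted, from 25 of the 33 genes, so some genes have several windows and others none. GC boxes were found in 22 of 33 windows (16 of 25 genes), against 35.7% of the 32851 promoter windows in the table. Those windows had a median of 52.7% G or C, and base composition was not taken into account in the motif counts. CCAAT boxes were found in 14 of 33 windows (10 of 25 genes), against 37.4%. Windows of the same gene can overlap. Matches to AP-1 (TGANTCA, 2 of 33 windows, 7.81% of all), ETS (CCGGAA, 8 of 33, 14.9% of all) and E2F sites (TTTNNCGC, 1 of 33, 5.17% of all) were counted too, and none of these lay in the 4 windows shown. No window of these genes matched the CRE letters TGACGTCA (1.79% of all windows) or the NF-kB motif searched (0.411% of all).

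Levels are given as the deposited FPKM, fragments per kilobase of gene length scaled to library size, so that genes of different length can be set side by side. Kdm6b, the inducible H3K27 demethylase (ENSMUSG00000018476, GRCm38 chromosome 11, 69398508 to 69413675, minus strand), stood far above every other member. It had 95.4, 93.4 and 97.1 FPKM in carnosine libraries, against 137, 132 and 132 FPKM in saline libraries. The groups were far apart, and the log2 fold change came to -0.48, with SE 0.02 (edgeR adjusted p = 2.46e-05). The next members in saline libraries were the H3K4 writers Kmt2d, Setd1a, Kmt2a and Setd7, with means of 20.5, 19.5, 17.5 and 16.4 FPKM. Kmt2d and Setd1a overlapped between saline libraries, Kmt2a (SD 6.16 FPKM, n = 3) spread across all of these neighbours, and Setd7 lay below both Kmt2d and Setd1a in every saline library. In carnosine libraries Setd1a had rank 2 and Kmt2d, at a mean of 18.2 FPKM, had rank 3. At the low end Setd4 averaged 0.655 FPKM in carnosine and 0.735 FPKM in saline libraries. Kdm4d, known from testis, had 0 counts in every carnosine library and 3, 0 and 1 counts in the saline libraries, and was the 1 member that did not pass the filter on low counts. A count of 0 allows up to 3 counts, which at this depth is 0.226 to 0.291 CPM (counts scaled to a common library total; counting error only).

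**Figure D1:**
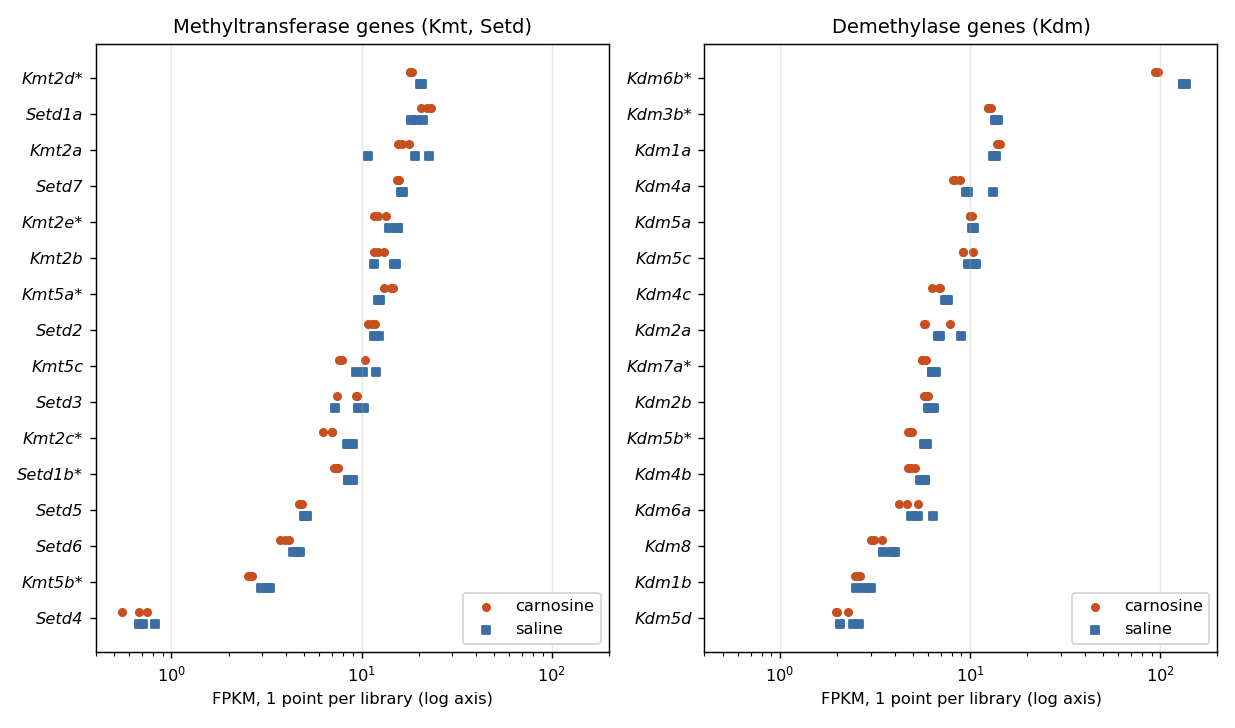
Level of each gene tested in FPKM (log axis), 1 point per library, with carnosine as circles above saline as squares, writers left and erasers right, ordered by the saline mean; asterisks mark genes called in the test. Kdm6b sits alone near 100 FPKM or above, and most other genes lie between 2 and 25 FPKM.

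Of the 7 H3K4 writers 3 were called lower, against 8.39% of all genes. KMT2C and KMT2D are the paralogous methyltransferases that place H3K4 monomethylation at enhancers. Kmt2c (ENSMUSG00000038056, chromosome 5, 25271798 to 25498783, minus strand) had 7.03, 6.98 and 6.29 FPKM in carnosine libraries, against 8.63, 9.01 and 8.42 FPKM in saline libraries. Its groups did not overlap, and its log2 fold change was -0.36 (SE 0.05, edgeR adjusted p = 0.00351). Kmt2d (ENSMUSG00000048154, chromosome 15, 98831669 to 98871204, minus strand) had 18.0, 18.0 and 18.5 FPKM in carnosine, against 20.5, 20.2 and 20.9 FPKM in saline libraries. The groups did not overlap, the SDs were 0.293 FPKM in carnosine and 0.329 FPKM in saline, and the fall was small (log2 fold change -0.17, SE 0.02, edgeR adjusted p = 0.00391). The Kmt2d call held in 17 of 18 alternative settings and ended with the correction for length and GC content (log2 fold change -0.04, adjusted p = 0.313).

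SETD1A and SETD1B are the catalytic subunits of the complexes that place most H3K4 trimethylation at promoters. Setd1b (ENSMUSG00000038384, chromosome 5, 123142193 to 123168629, plus strand) had 7.19, 7.44 and 7.55 FPKM in carnosine, against 8.51, 8.44 and 9.02 FPKM in saline libraries. Its groups did not overlap (log2 fold change -0.22, SE 0.04, edgeR adjusted p = 0.0103), and its call held in 17 of 18 alternative settings. Setd1a had 22.2, 23.3 and 20.6 FPKM in carnosine, against 21.1, 18.2 and 19.3 FPKM in saline libraries. Its groups overlapped, and it was not called (log2 fold change 0.18, SE 0.06, edgeR adjusted p = 0.0984). The difference between the paralogs' changes was not tested. Setd1a shares its locus and strand with the gene model Gm49388, which had 4, 0 and 6 counts in carnosine libraries and 0, 322 and 668 counts in saline libraries. Taken as a sum, Setd1a and Gm49388 had 178, 187 and 166 CPM in carnosine libraries and 169, 177 and 205 in saline libraries. The summed values of the groups overlapped widely, with the highest library in saline.

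The other H3K4 writers were not called. Kmt2a, the founder of the family and a target of leukemia translocations, had 15.6, 17.7 and 16.3 FPKM in carnosine, against 19.1, 10.8 and 22.7 FPKM in saline libraries. Saline replicate 2 was far below the other saline libraries, and the log2 fold change, -0.08 with SE 0.23 (edgeR adjusted p = 0.838), was 0.15 without saline replicate 3 and -0.34 without saline replicate 2. Kmt2b had 13.1, 12.2 and 11.7 FPKM in carnosine, against 14.9, 15.2 and 11.6 FPKM in saline libraries (log2 fold change -0.17, edgeR adjusted p = 0.296). It was called lower without saline replicate 3 (log2 fold change -0.28, edgeR adjusted p = 0.0228). Setd7, which monomethylates H3K4 and other proteins, had 15.5, 15.4 and 15.8 FPKM in carnosine, against 16.4, 16.6 and 16.2 FPKM in saline libraries, and was not called (log2 fold change -0.07, SE 0.03, edgeR adjusted p = 0.148).

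The H4K20 writers act in order. KMT5A adds the first methyl group and is needed for replication and mitosis, and KMT5B and KMT5C add further ones. Kmt5a (ENSMUSG00000049327, chromosome 5, 124439930 to 124462308, plus strand) was the only member called higher. It had 14.2, 13.1 and 14.6 FPKM in carnosine, against 12.5, 12.3 and 12.2 FPKM in saline libraries (log2 fold change 0.19, SE 0.05, edgeR adjusted p = 0.0322). Kmt5b (ENSMUSG00000045098, chromosome 19, 3767421 to 3818303, plus strand) was lower, with 2.65, 2.52 and 2.58 FPKM in carnosine, against 3.18, 3.30 and 2.94 FPKM in saline libraries (log2 fold change -0.27, SE 0.05, edgeR adjusted p = 0.0122). The groups did not overlap in either gene. Kmt5c varied within both groups (8.62 ± 1.55 FPKM in carnosine and 10.5 ± 1.30 FPKM in saline, SD, n = 3 each) and was not called (edgeR adjusted p = 0.190). Without carnosine replicate 2 it was called lower, with a log2 fold change of -0.44 in place of -0.28. The call of Kmt5a held in 9 of 18 alternative settings and that of Kmt5b in 16 of 18.

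Of the remaining writers 1 of 6 was called, where 8.39% of all genes were called lower and 9.51% higher. Setd2, the enzyme that trimethylates H3K36 behind RNA polymerase II, had 11.4, 10.8 and 11.7 FPKM in carnosine, against 12.3, 11.6 and 11.8 FPKM in saline libraries (log2 fold change -0.07, edgeR adjusted p = 0.287). Kmt2e carries a SET domain without known activity on histones and is known for a role in blood stem cell maintenance. It was lower, with 13.5, 12.2 and 11.6 FPKM in carnosine, against 15.5, 13.9 and 15.5 FPKM in saline libraries (log2 fold change -0.26, SE 0.07, edgeR adjusted p = 0.0326), and its call held in 10 of 18 alternative settings. Setd3, which methylates a histidine of actin, Setd4, Setd5 and Setd6, which methylates the NF-kB subunit RELA, had log2 fold changes from -0.21 to -0.04 and were not called.

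Among erasers Kdm6b had the change of the largest size. The H3K27 erasers include KDM6A, encoded on the X chromosome, and KDM7A, which also acts on H3K9. Kdm7a (ENSMUSG00000042599, chromosome 6, 39136623 to 39206789, minus strand) had 5.56, 5.56 and 5.83 FPKM in carnosine, against 6.61, 6.33 and 6.32 FPKM in saline libraries (log2 fold change -0.18, SE 0.05, edgeR adjusted p = 0.0349). Its groups did not overlap, but the call held in 4 of 18 alternative settings. Kdm6a was at 4.72 ± 0.561 FPKM in carnosine and 5.54 ± 0.788 FPKM in saline (SD, n = 3 each) and was not called (log2 fold change -0.23, edgeR adjusted p = 0.232). The antisense RNA Kdm6bos overlaps Kdm6b. No source used here gives the strand setting of the counting, so whether reads of either gene were counted for the other is unknown. As deposited, Kdm6bos had 5 to 15 counts in carnosine and 8 to 13 in saline libraries, 0.104% of the Kdm6b total.

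Of the H3K4 erasers 1 of 6 was called, where 8.39% of all genes were called lower and 9.51% higher. Kdm5b (ENSMUSG00000042207, chromosome 1, 134560171 to 134635285, plus strand), which removes H3K4 trimethylation, had 4.86, 4.69 and 4.96 FPKM in carnosine, against 5.86, 5.71 and 5.90 FPKM in saline libraries (log2 fold change -0.26, SE 0.04, edgeR adjusted p = 0.00432). The groups were well apart and the call held in 18 of 18 alternative settings. Its paralog Kdm5a, at 10.0 ± 0.144 FPKM in carnosine and 10.3 ± 0.125 FPKM in saline (SD, n = 3 each), was not called (log2 fold change -0.04, edgeR adjusted p = 0.443). Kdm1a was the eraser with a log2 fold change above 0 (0.07, SE 0.04, edgeR adjusted p = 0.222), at 14.1 ± 0.293 FPKM in carnosine and 13.4 ± 0.269 FPKM in saline (SD, n = 3 each). Its relative Kdm1b, at 2.55 ± 0.0837 FPKM in carnosine and 2.77 ± 0.240 FPKM in saline (SD, n = 3 each), was not called (edgeR adjusted p = 0.394).

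The sex-linked paralogs Kdm5c (X chromosome) and Kdm5d (Y chromosome) were both present. Kdm5c averaged 9.58 FPKM in carnosine and 10.3 FPKM in saline, and Kdm5d 2.09 FPKM in carnosine and 2.36 FPKM in saline. Neither was called (edgeR adjusted p = 0.324 and 0.256). The Y-linked gene Ddx3y had 83.0 to 102 CPM in carnosine and 92.6 to 98.1 in saline libraries, and Xist, the RNA of the inactive X, 0.227 to 1.92 in carnosine and 0.0971 to 0.986 in saline libraries. All 6 libraries thus read Y-linked RNA and almost no Xist.

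H3K9 demethylation is the work of KDM3B and the KDM4 family, of which KDM4A to KDM4C also act on H3K36. Kdm3b (ENSMUSG00000038773, chromosome 18, 34777047 to 34838660, plus strand) had 12.5, 12.3 and 12.9 FPKM in carnosine, against 14.0, 13.6 and 13.6 FPKM in saline libraries. Its groups did not overlap, and its fall was the smallest of those called (log2 fold change -0.12, SE 0.03, edgeR adjusted p = 0.0320). The call held in 5 of 18 alternative settings. Kdm4a had the second largest negative log2 fold change of the erasers, -0.36, but its error was wide (SE 0.12, edgeR adjusted p = 0.0827). It had 8.32, 8.80 and 8.14 FPKM in carnosine, against 9.54, 13.2 and 9.75 FPKM in saline libraries, with saline replicate 2 high and no overlap between groups. Without that library the log2 fold change was -0.19, and with DESeq2 Kdm4a was called lower (adjusted p = 0.0446). Kdm4b and Kdm4c gave log2 fold changes of -0.20 and -0.17 (edgeR adjusted p = 0.0552 and 0.0905), each with carnosine libraries below all saline libraries. Kdm4b was called lower with limma-voom (adjusted p = 0.0468) and with scaling by library totals (edgeR adjusted p = 0.0497). The H3K36 erasers Kdm2a and Kdm2b were not called (log2 fold changes -0.22 and -0.08), nor was Kdm8 (-0.25, edgeR adjusted p = 0.161), whose activity on histones is disputed.

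**Figure D2:**
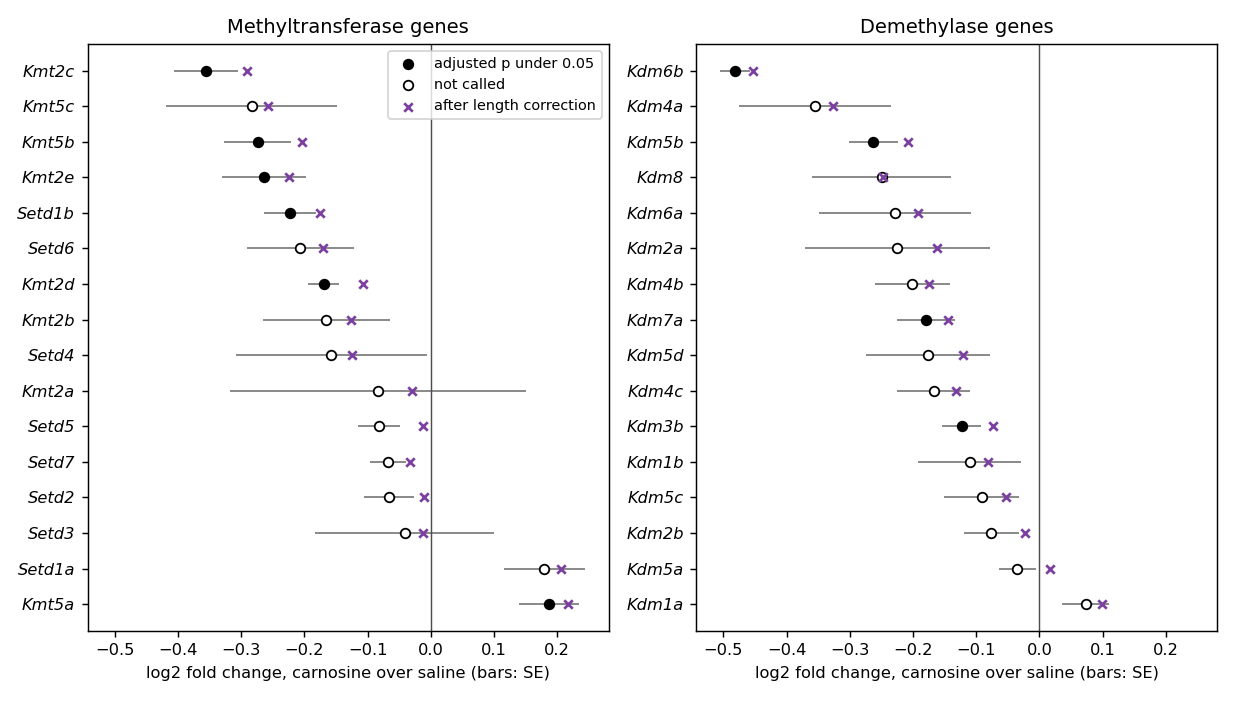
Log2 fold change of each gene, carnosine over saline, with bars of 1 SE (3 libraries per group), writers left and erasers right. Each SE was derived from the fold change and the F statistic of the edgeR test. Filled points passed an adjusted p of 0.05, open points did not, and crosses give the value after the length correction, which lies to the right of the uncorrected value in every gene plotted.

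Gene length was examined for both the changes and the levels. The length behind each FPKM was computed from the count, the FPKM and the library total. For all 32 members tested it equalled the sum of all distinct exons in GENCODE M21, in which bases shared by overlapping exons of different transcripts count more than once. The same held for 97.5% of the 11954 genes with over 300 counts in all, whereas the merged exon length fitted 16.5%. The deposited length was 1.05 to 2.05 times the merged length in these genes (median 1.40, against 1.30 in all genes tested). Deposited levels therefore stand lower, by that factor, than levels per merged kilobase. The members were long, with a median deposited length of 12592 nt for writers and 11644 nt for erasers, against 5443 nt for all genes tested. In merged exon length writers and erasers were further apart, with medians of 10599 nt and 7746.5 nt.

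Across all genes tested, the log2 fold change went down with length. In 5 bins of equal gene number the median was 0.09, 0.00, -0.01, -0.02 and -0.04 from the shortest to the longest, and the share called lower was 3.30%, 7.32%, 8.86%, 9.77% and 12.7%. The longest bin held 11 writers and 9 erasers, of which 5 writers and 3 erasers were called lower. Their median log2 fold changes there were -0.17 and -0.18. The bin below it held 4 writers and 5 erasers, with Kdm6b called lower and Kmt5a higher. A second background used the 924 other genes inside the interquartile range of the members in both length and abundance (9029 to 19518 nt and 66.6 to 176.7 CPM). Of these 14.9% were called lower, 9.20% higher, 55.0% were below 0, and the median log2 fold change was -0.02.

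Removing a smooth trend on length within each library left 6 members lower and Kmt5a higher. Those lower were Kdm6b (log2 fold change -0.45, edgeR adjusted p = 3.95e-05), Kdm5b (-0.21, adjusted p = 0.0126), Kmt2c (-0.29, adjusted p = 0.00723), Kmt2d (-0.11, adjusted p = 0.0289), Kmt5b (-0.20, adjusted p = 0.0354) and Setd1b (-0.17, adjusted p = 0.0289). Kdm3b, Kdm7a and Kmt2e lost the call (adjusted p = 0.150, 0.0697 and 0.0586). The medians became -0.12 for writers and -0.14 for erasers. The background after this correction was 8.64% lower and 10.8% higher, and 28 of the 32 members were below 0, against 49.7% of all genes. That background includes the shortest length bin, which held no member and had a median log2 fold change of -0.095 after the correction. The longer bins had medians of 0.0089 to 0.032. With merged exon lengths, chosen after seeing the data, 6 members were lower and 1 higher, against backgrounds of 8.75% and 10.9%, and 28 of 32 were below 0, against 49.7% of all genes. A correction for length and transcript GC content together, chosen after seeing the data, left 5 lower and 2 higher, against 8.64% and 10.7% of all genes, and 28 of 32 below 0, against 50.3% of all genes. Kmt2d (-0.04, adjusted p = 0.313) and Setd1b (-0.11, adjusted p = 0.125) were no longer called, Kmt2e was, and Setd1a was called higher (0.26, adjusted p = 0.0316). That Setd1a call leaves out the counts of Gm49388 at the same locus, and with them added the groups overlapped in CPM, as given above.

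**Figure D3:**
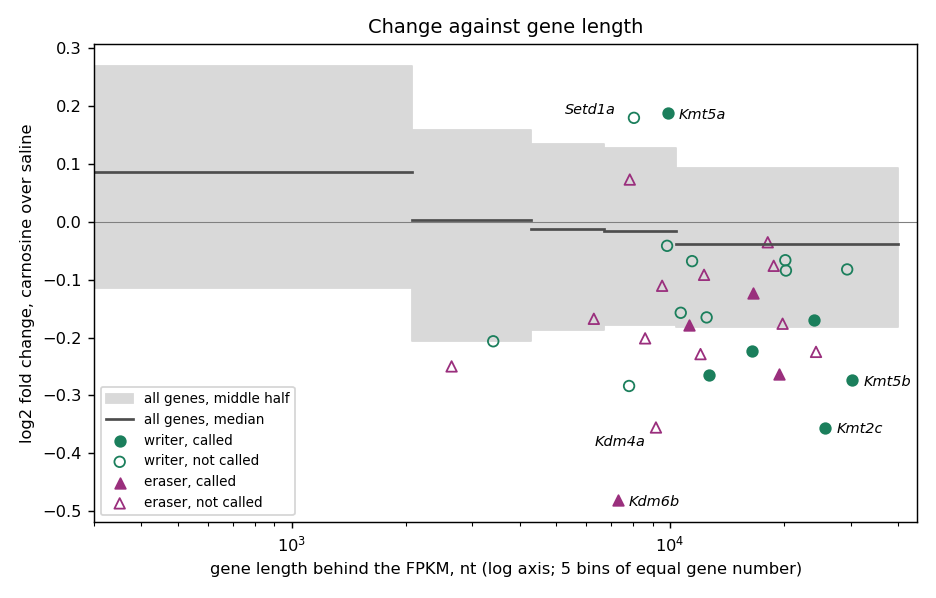
Log2 fold change, carnosine over saline, against the gene length behind the FPKM (log axis), with writers as circles and erasers as triangles, filled where called. Grey boxes and lines give the interquartile range and median of all genes tested in 5 length bins. Kdm6b, Kmt2c and Kmt5b are among the genes below the boxes, and Kmt5a and Setd1a (without the counts of Gm49388) are above.

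The median writer stood at 10.0 FPKM in carnosine and 11.2 FPKM in saline libraries, taken over the genes' group means, and the median eraser at 5.87 FPKM in carnosine and 6.42 FPKM in saline. In summed FPKM as deposited, erasers were above writers, whereas writers were above erasers without Kdm6b, in summed CPM and, other than in saline replicate 2, per transcript kilobase. These sums cover only the genes of the rule. Other histone lysine methyltransferases summed to 2074 to 2086 CPM in carnosine and 2141 to 2142 in saline libraries. Other Jumonji genes summed to 557 to 628 CPM in carnosine and 639 to 724 in saline libraries. In the same unit, which is not per length, the 16 writers summed to 2461 to 2531 CPM in carnosine and 2546 to 2813 in saline libraries. The 17 erasers summed to 2009 to 2061 CPM in carnosine and 2419 to 2495 in saline libraries. Kdm6b alone held 47.4% to 49.0% of eraser FPKM in carnosine and 53.8% to 54.8% in saline libraries. Writers summed to 166, 169 and 162 FPKM in carnosine and to 185, 166 and 180 FPKM in saline libraries. Erasers summed to 195, 197 and 198 FPKM in carnosine and to 249, 245 and 243 FPKM in saline libraries. The eraser sums did not overlap between groups, and the writer sums did. Without Kdm6b the erasers summed to 99.8, 104 and 101 FPKM in carnosine and to 113, 113 and 111 FPKM in saline libraries, again without overlap.

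The writer to eraser ratio of these sums was 0.852, 0.858 and 0.816 in carnosine libraries, against 0.743, 0.679 and 0.743 in saline libraries. It was higher in each carnosine library than in any saline library. Without Kdm6b the ratio was 1.67, 1.63 and 1.60 in carnosine libraries, against 1.65, 1.47 and 1.63 in saline libraries, and the groups overlapped. For H3K4 alone, 7 writers over 6 erasers gave 2.31, 2.35 and 2.21 in carnosine and 2.42, 2.17 and 2.43 in saline libraries, again with overlap. No test was run on these ratios, because they are scores over chosen genes.

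**Figure D4:**
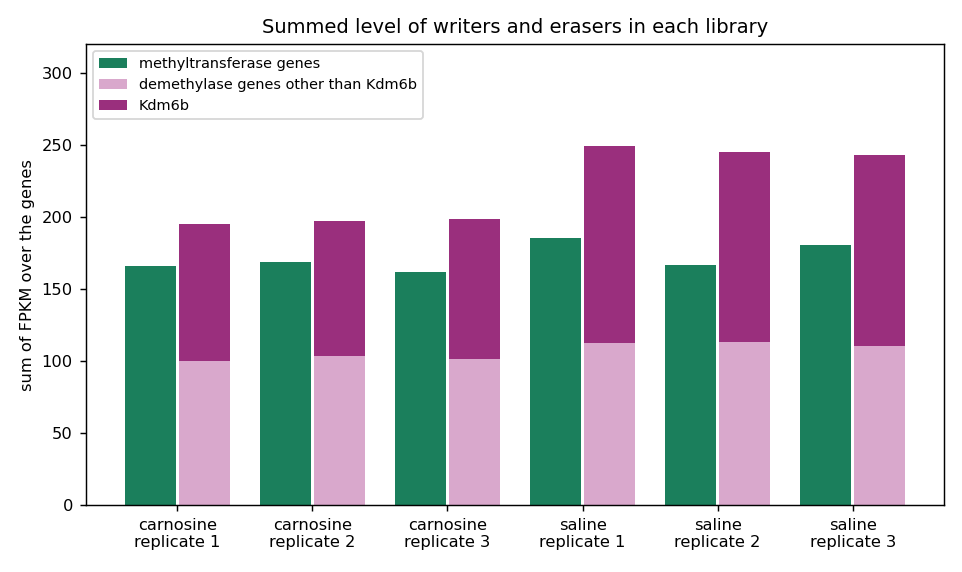
Sum of FPKM over the 16 writers (left bar of each pair) and the 17 erasers (right bar, split into Kdm6b and the others) in each library. Kdm6b makes up about as much as all other erasers together, and its part is lower in all carnosine libraries.

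Levels of single genes moved with the choice of length. Per kilobase of the annotated transcript with the longest coding part, chosen after seeing the data, Kmt5a reached 96.8 in carnosine and 85.4 in saline libraries (same scaling), against 14.0 and 12.3 FPKM as deposited, since its deposited length is 9869 nt and this transcript 1425 nt. It then had rank 2, behind Kdm6b at 104 in carnosine and 146 in saline libraries, whereas it had rank 10 in saline as deposited. Setd3 moved from rank 16 to rank 5 and Kmt2d from rank 2 to rank 10 in saline libraries. Which transcripts these cells make was not tested. Kdm6b ranked first under each of the 3 lengths, deposited, merged exons and transcript. The ratio of writer to eraser sums was 0.955 in carnosine and 0.834 in saline per merged kilobase, and 1.18 in carnosine and 1.03 in saline per transcript kilobase.

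**Figure D5:**
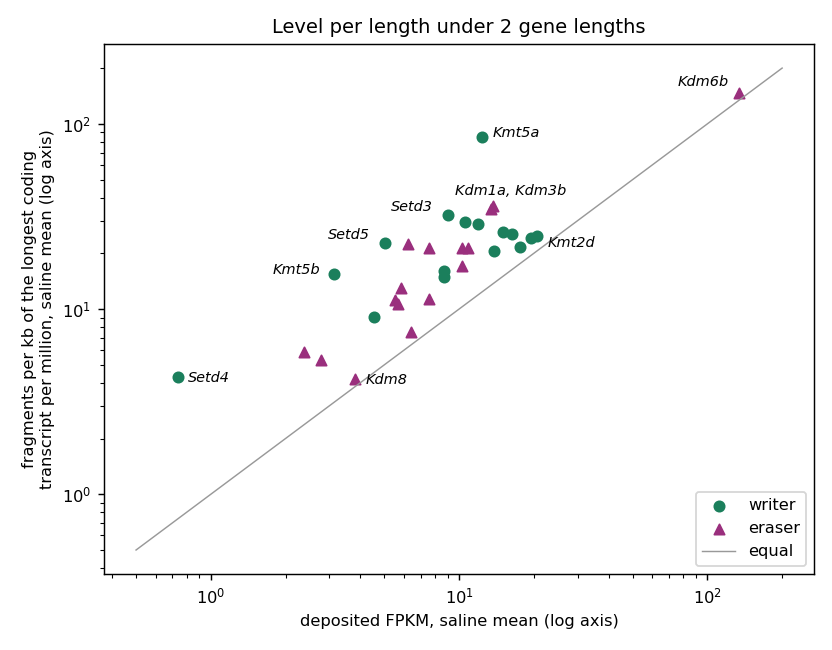
Mean level in saline libraries per kilobase of the longest coding transcript (vertical, log axis) against the deposited FPKM (horizontal, log axis), 1 point per gene, circles for writers and triangles for erasers. All genes lie above the line of equality, by the most for Kmt5a and Setd4 and by little for Kdm6b and Kdm8.

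Related genes were counted from lists outside the members, which were chosen with earlier results of these data known. Gene length was not taken into account for these lists. Of 22 other histone lysine methyltransferases tested 5 were lower and 1 higher (median log2 fold change -0.01). Prdm2 (-0.29, edgeR adjusted p = 0.00848), Ash1l (-0.24, adjusted p = 0.00476), an H3K36 writer, and Dot1l (-0.18, adjusted p = 0.0213), the H3K79 writer, were among the lower, and Mecom (0.19, adjusted p = 0.0241), a stem cell transcription factor with a PR domain, was the higher one. Of 13 other Jumonji genes tested 3 were lower and 0 higher (median -0.08): Jmjd6 (-0.34, adjusted p = 0.00431), the Polycomb partner Jarid2 (-0.23, adjusted p = 0.0222) and Jmjd4 (-0.92, adjusted p = 0.0458). The calls of these lists can be read against 8.39% lower and 9.51% higher in all genes.

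Of 15 subunits and partners of the KMT2 and SETD1 complexes 1 was lower and 2 higher (median 0.07), shares near those of all genes (8.39% and 9.51%). The shared scaffold Wdr5 (0.14, edgeR adjusted p = 0.0417) and the KMT2A partner Psip1 (0.25, adjusted p = 0.00097) were higher, and Bod1l (-0.20, adjusted p = 0.0129), which works with SETD1A, was lower. Of 18 partners of KDM1A and KDM2B 6 were lower and 1 higher (median -0.10), with gene length not taken into account. The repressor Gfi1b, which recruits KDM1A, had 6.97, 8.27 and 6.67 CPM in carnosine, against 16.5, 15.1 and 13.2 in saline libraries (log2 fold change -1.04, SE 0.13, adjusted p = 0.0021). Gse1 (-0.25, adjusted p = 0.00106) and Bcor (-0.21, adjusted p = 0.00514) were lower as well, and Hdac2 (0.13, adjusted p = 0.0321) was higher.

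In a list of genes around the metabolism of the cofactors, those called were all higher. Gene length was not taken into account for this list, which was also chosen with earlier results of these data known. Of 26 genes for S-adenosylmethionine and 2-oxoglutarate 11 were higher and 0 lower (9.51% and 8.39% in all genes), with a median of 0.14. They included Shmt2 (0.26, edgeR adjusted p = 0.00105), the mitochondrial serine hydroxymethyltransferase, Ahcy (0.33, adjusted p = 0.00265), which clears the product that inhibits methyltransferases, and the transaminase Got2 (0.28, adjusted p = 0.00303). Several of these also belong to the TCA cycle and mitochondrial pathways. No metabolite or histone mark was measured.

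All 6 libraries read stem cell markers, and 10 of 10 on the list passed the filter (summed level 1031 to 1183 CPM in carnosine and 1045 to 1080 in saline libraries, Mecom called higher). The RNAs of the proteins absent from the gate, Flt3 and Cd34, summed to 1618 to 1653 CPM in carnosine and 1666 to 1685 in saline libraries. Among markers of other cells, the sums for erythroid, neutrophil granule, B lineage, and basophil and mast cell lists did not overlap between groups. The megakaryocyte and T cell sums overlapped. Calls can be read against 8.39% lower and 9.51% higher in all genes. Erythroid markers summed to 97.0 to 98.9 CPM in carnosine and 39.9 to 49.4 in saline libraries (3 of 6 called higher), and neutrophil granule markers to 448.6 to 464.7 in carnosine and 713.4 to 727.5 in saline libraries (3 of 5 called lower). B lineage and plasma cell markers summed to 327.5 to 571.3 in carnosine and 123.8 to 195.1 in saline libraries (1 of 5 called in each direction, Jchain the higher one). Basophil and mast cell markers summed to 10.9 to 12.4 in carnosine and 17.8 to 18.7 in saline libraries (1 of 2 called, lower), and megakaryocyte markers to 68.5 to 75.6 in carnosine and 73.0 to 76.5 in saline libraries (1 of 3 called, lower). T cell markers stood at 0.481 to 2.12 in carnosine and 1.07 to 2.21 in saline libraries, with none tested. No marker was at 0 in all libraries. Their part in the results above was not tested. Opposite-strand genes with over 10% of a member's counts overlap Kdm1a, Kdm1b, Kdm2b, Kdm5a and Kmt2e, and of these Kmt2e was called. Over all libraries Dek had 25100 counts against 1762 for Kdm1b, and Srpk2 had 6419 against 12110 for Kmt2e. Whether reads of these genes were counted for the members is unknown.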

How the data were processed

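RNA of sorted LT-HSCs was sequenced as poly-A-selected, stranded paired-end libraries, per the labels' protocols. Tools listed in the submitters' processing notes are StringTie, HISAT2, edgeR and CASAVA 1.8, and the build is GRCm38. The annotation release, the strand setting and the treatment of multi-mapping reads were not given in the sources used here. The authors deposited raw counts and FPKM per gene and library, per the file headers. Totals were 10442112 to 13251332 counts in carnosine and 10304539 to 13210166 in saline libraries. Counts were used as deposited, scaled by TMM (factors 0.998 to 1.003), filtered with filterByExpr (15298 genes kept) and tested with edgeR 4.0.16 in R 4.3.3 (quasi-likelihood F test, two-sided). The fit and the length correction were tested on simulated counts first. Lengths and GC content came from GENCODE M21 (55141 of 55487 identifiers matched). The length correction used splines with 5 degrees of freedom as offsets. Members and lists were chosen with earlier results of these data known. The genes named are all members, and in other lists up to 3 genes per direction with the smallest p. Alternatives were DESeq2 1.42.0, limma 3.58.1 (voom, and trend on log2(FPKM + 1) and log2(FPKM + 0.1)), other scalings and filters, a replicate block, length corrections and leaving out each library. A marker gene of the B lineage list is not reported here on its own.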

Additional observations from a re-analysis of the deposited data

How the results depend on the processing

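The members called lower were 9, and between 7 and 10 with DESeq2, limma-voom, the other scalings, the filters and the replicate block, 6 with the length correction on either length, and 5 with limma-trend on FPKM (either pseudocount) or with the length and GC correction. Leaving out 1 library gave 6 to 7. The single higher member was 0 with DESeq2, the replicate block and limma-trend on FPKM (either pseudocount), 2 with the length and GC correction, and 0 to 1 without 1 library. Kdm5b, Kdm6b and Kmt2c kept their calls in all 18 alternatives. Over all genes, 1283 were lower and 1455 higher, against 764 and 772 with DESeq2, 810 and 946 with the replicate block, and 801 to 883 and 932 to 1009 without 1 library; the cause was not tested beyond the smaller number of libraries in the last. The writers' median log2 fold change of -0.16 became -0.12 with the length correction, -0.11 with merged exons, -0.075 with length and GC and -0.11 with limma-trend on log2(FPKM + 1), and -0.18 to -0.13 without 1 library. The erasers' -0.18 became -0.14 with the length correction on either length, -0.13 with length and GC, and -0.21 to -0.13 without 1 library. The sign of Kdm5a turned to 0.017, 0.0051 and 0.014 with the length, length and GC, and merged exon corrections, and without 1 library Setd3 gave -0.17 to 0.064 and Kmt2a -0.34 to 0.15; none was called. The writer to eraser ratio of 0.842 in carnosine and 0.722 in saline was 1.23 and 1.11 by sums of CPM, 1.77 and 1.70 by medians of FPKM, 0.955 and 0.834 per merged kb, 1.18 and 1.03 per transcript kb, and 1.63 and 1.58 without Kdm6b, with ranges of 0.834 to 0.855 and 0.711 to 0.743 without 1 library.

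Replicate numbers are not said to pair the samples, and same-numbered libraries deviated from their group means with correlations of -0.05, -0.07 and 0.02, so the block was not used. Under the replicate block 7 members were lower and 0 higher: Kdm3b, Kdm7a and Kmt5a lost their calls (adjusted p = 0.0772, 0.0854 and 0.0650). Setd4 (71 to 105 counts in carnosine and 75 to 100 in saline libraries) and Kdm4d had the lowest counts.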
